A study of Danio rerio with 21 samples.

Results

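A pair of libraries of adult zebrafish telencephalon stood apart from the other libraries of their own group. At a 2-fold limit they shared many of the genes in which they were low and few of those in which they were high. One was control replicate 6 of batch 2, made from unexposed fish, and the other was 5 mGy/h replicate 1 of batch 1, made from irradiated fish. Both were chosen by their measured gene counts, as libraries that deviated from their mates, so their differences from their group mates are given as a description, with no test. The first was set against control replicates 1 to 5 of batch 2 and the second against 5 mGy/h replicates 2 and 3, which makes 9 of the 21 libraries of the series. A gene was counted as beyond the mates where the library lay outside the range of all its mates and differed from their mean by at least 2-fold, on the scale of log2(CPM + 0.5), where CPM are read counts scaled to library size (counts per 1000000) after TMM scaling. Of 17430 genes with a mean of at least 1 CPM, 2708 lay below the mates in both libraries, 15.5% of the genes tested, and 45 lay above them in both, 0.258% of the genes tested.

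All fish were wildtype AB zebrafish, 6 to 9 months old, and each library held a pool of 3 to 4 dissected telencephalons. Irradiated fish had been kept for 36 days under gamma rays of a cesium source. Batch 1 held 3 libraries at 5 mGy/h, 3 at 0.5 mGy/h and 3 of unexposed controls, and batch 2 held 6 libraries at 0.05 mGy/h and 6 of unexposed controls. Control replicate 6 held 32.1 M reads counted on genes (M, 1000000 reads), against 23.8 to 40.5 M in its mates, and 5 mGy/h replicate 1 held 46.4 M, against 71.6 and 45.4 M in its mates. The detection floor, set at 3 counts, was 0.119 CPM in control replicate 6 and 0.0636 CPM in 5 mGy/h replicate 1. This floor covers counting error only.

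The telencephalon is the front part of the brain, and in fish its pallium and subpallium hold excitatory and GABA-releasing neurons, radial glia that serve as neural stem cells, and myelinating and immune cells. Voltage-gated sodium and calcium channels carry and convert the electrical signals of these neurons, scaffold proteins hold receptors at the synapse, and protocadherins are adhesion molecules of neuronal surfaces. Ribosomal, proteasomal and respiratory chain proteins are made by every cell. In a pool of tissue, fewer cells of a type and less RNA per cell cannot be told apart. Roles given for single genes are those known in vertebrates, for many of them from mammals.

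Genes of the telencephalon were present in both libraries. Of 30 genes on a list of telencephalon transcription factors, 27 reached a mean of 1 CPM. In control replicate 6, 8 of these were above the mates and 5 below, beside 18.2% above and 26.3% below of all genes tested. The median difference was 0.56 and the summed level 2741 CPM, against 1601 to 2016 CPM in its mates. In 5 mGy/h replicate 1 the median difference was 0.06 and the summed level 2160 CPM, against 1889 to 1923 CPM in its mates. Below the mates in both were 5 of the 27 (18.5%), close to the 15.5% of all genes tested. The homeobox gene emx3 was at 47.1 CPM in control replicate 6, within the 44.1 to 63.4 CPM of its mates, and at 69.5 CPM in 5 mGy/h replicate 1, against 55.1 to 60.8 CPM in its mates. Transcripts of the labelled tissue were thus present in both libraries, and as a list they were higher in control replicate 6 than in its mates.

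The 3 genes first given as markers of the deviation, shank2a, hsp90aa1 and oxt, marked only one of the libraries. shank2a, which encodes a scaffold of the postsynaptic density, was at 8.52 CPM in control replicate 6, against 42.4, 45.7, 42.9, 44.7 and 39.7 CPM in control replicates 1 to 5, a difference of -2.27 on the log2 scale. In 5 mGy/h replicate 1 the same gene was at 48.2 CPM, between the 39.4 and 53.5 CPM of its mates. hsp90aa1, a cytosolic chaperone, was at 1165 CPM in control replicate 6, against 305, 375, 427, 445 and 414 CPM in its mates. It was at 369 CPM in 5 mGy/h replicate 1, again between the values of its mates (389 and 318 CPM). oxt, which encodes the isotocin precursor made by preoptic neurons, was at 1273 CPM in control replicate 6, against 91.3, 41.4, 117, 106 and 132 CPM in its mates, a difference of 3.80 on the log2 scale. In 5 mGy/h replicate 1 it was at 134 CPM, against 149 and 311 CPM in its mates. The deviation of the irradiated library was therefore not one of these 3 genes, and the genes that both libraries share are others.

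The same held for hspa8 and avp. hspa8 (ENSDARG00000037403), a constitutive heat shock protein, was at 283 CPM in control replicate 6, against 115 to 149 CPM in its mates, and at 143 CPM in 5 mGy/h replicate 1, against 149 and 114 CPM in its mates. The other, hspa8 (ENSDARG00000068992), was at 80.1 CPM in control replicate 6, against 9.49 to 42.8 CPM, and at 48.1 CPM in 5 mGy/h replicate 1, against 40.3 and 57.9 CPM. avp, the vasotocin precursor, was at 18.1 CPM in control replicate 6, against 0.537 to 1.40 CPM in its mates, and at 0.488 CPM in 5 mGy/h replicate 1, against 0.687 and 0.986 CPM in its mates.

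Across all genes the deviations were large in number and lopsided. Control replicate 6 lay above its mates in 3178 genes, 18.2% of the genes tested, and below them in 4591 genes, 26.3%. In 5 mGy/h replicate 1 there were 121 genes above the mates, 0.694%, and 2902 below, 16.6%. The 2708 genes below the mates in both were 59.0% of the lower genes of control replicate 6 and 93.3% of those of 5 mGy/h replicate 1. The 45 genes above the mates in both were 1.42% and 37.2% of the higher genes of each. Opposite directions were rare, with 16 genes above in control replicate 6 and below in 5 mGy/h replicate 1 (0.0918%) and 5 genes the other way round (0.0287%). The small number shared on the higher side depended on the limit. With a 1.5-fold limit, 770 genes were above in both libraries and 1039 in 5 mGy/h replicate 1. Of the 3178 genes above 2-fold in control replicate 6, 2696 (84.8%) had a difference above 0 in 5 mGy/h replicate 1, with a median of 0.35. Of the 4591 lower genes, 4369 (95.2%) were below 0 there, with a median of -1.25. Scaling by the reads on genes alone, in place of TMM, moved the median difference of control replicate 6 by -0.31 and its counts to 1828 genes above and 5464 below, so that 25.1% of its deviating genes were above the mates, against 40.9% with TMM. The TMM factor of this library was 0.783, against 0.965 to 1.02 in its mates.

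The 2 sets of differences share no library. Across the 17430 genes their Pearson correlation was 0.80 and Spearman's rho was 0.74, a description over genes, which are not independent replicates. The median difference was 0.03 in both libraries, and the 5th percentiles were -3.25 in control replicate 6 and -2.59 in 5 mGy/h replicate 1, while the 95th percentiles were 1.68 and 0.61. The distribution of each library thus had a long lower tail and a short upper one, more so in the irradiated library. Over the log values of all tested genes, control replicate 6 correlated at 0.790 to 0.811 with its mates, whose correlations among themselves were 0.976 to 0.988, and at 0.932 with 5 mGy/h replicate 1, the library nearest to it of all 20 others. The other libraries of batch 1 correlated with control replicate 6 at 0.817 to 0.877, and those at 0.05 mGy/h at 0.775 to 0.813. Every library of batch 1 was thus nearer to it than any library of its own batch. In turn 5 mGy/h replicate 1 correlated at 0.909 and 0.890 with its mates, whose own correlation was 0.986, and its nearest library was 0.5 mGy/h replicate 3 at 0.957.

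**Figure D1:**
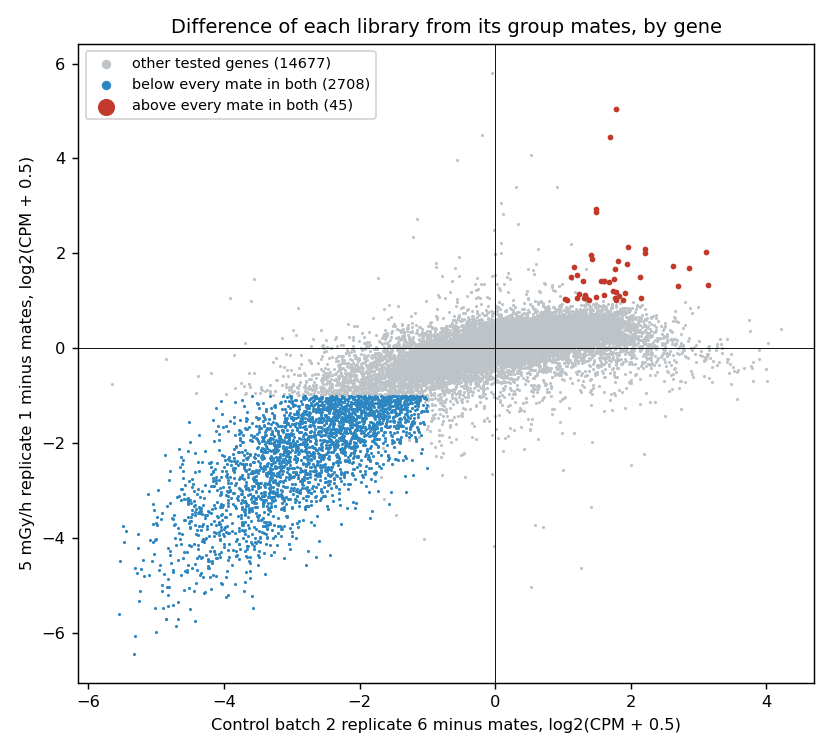
Difference of control batch 2 replicate 6 from its mates (x axis) against that of 5 mGy/h replicate 1 from its mates (y axis), both in log2(CPM + 0.5), with 1 point for each of 17430 genes. The 2708 genes below the mates in both (blue) fill the lower left, and the 45 above in both (red) are few.

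The shared lower genes fell far below the mates. Their median difference was -2.73 in control replicate 6 and -2.02 in 5 mGy/h replicate 1. Of the 2708, 1298 were at least 4-fold below the mates in both libraries, 518 at least 8-fold, 114 at least 16-fold and 7 at least 32-fold. They took 0.839% of the reads on genes in control replicate 6, against 8.74% to 9.64% in its mates, and 1.67% in 5 mGy/h replicate 1, against 7.19% and 8.20% in its mates. Genes near the limit were chrna6, a nicotinic receptor subunit, just inside with differences of -1.92 in control replicate 6 and -1.00002 in 5 mGy/h replicate 1, and fam20c, just outside with -0.998 and -1.71. By level, 12.6% of the genes under 3 CPM belonged to the shared lower genes, 18.9% of those from 3 to 10 CPM, 19.0% of those from 10 to 30 CPM, 14.3% of those from 30 to 100 CPM, 9.17% of those from 100 to 300 CPM and 3.29% of those above 300 CPM. The level is the mean over all libraries other than control replicate 6 and 5 mGy/h replicate 1. The pattern was therefore not one of the weakest transcripts, and it was least common among the most abundant ones.

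The named gene with the largest smaller drop was scn2b, an accessory subunit of voltage-gated sodium channels. It was at 4.06 CPM in control replicate 6, against 209, 211, 234, 210 and 201 CPM in control replicates 1 to 5, and at 2.16 CPM in 5 mGy/h replicate 1, against 121 and 136 CPM in 5 mGy/h replicates 2 and 3. The differences were -5.55 and -5.60 on the log2 scale, so that both libraries held little more than a trace of a transcript that was abundant in every mate. pcsk1, the prohormone convertase that cuts neuropeptide precursors, was at 7.16 CPM in control replicate 6, against 255 to 348 CPM in its mates, and at 1.40 CPM in 5 mGy/h replicate 1, against 145 and 188 CPM. Its differences were -5.32 in control replicate 6 and -6.45 in 5 mGy/h replicate 1.

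Genes of membrane traffic and of adhesion followed. scamp5 (ENSDARG00000018743), a membrane protein of synaptic vesicles, was at 3.98 CPM in control replicate 6, against 138 to 158 CPM in its mates, and at 1.63 CPM in 5 mGy/h replicate 1, against 89.7 and 98.9 CPM. ehd3, which acts in endosomal recycling, was at 1.15 CPM in control replicate 6, against 45.4 to 54.3 CPM, and at 0.424 CPM in 5 mGy/h replicate 1, against 29.8 and 33.4 CPM. l1camb, an adhesion molecule of axons, was at 3.86 CPM in control replicate 6, against 116 to 139 CPM, and at 3.16 CPM in 5 mGy/h replicate 1, against 98.8 and 135 CPM. By the rule that chose these genes, neither deviating library could overlap its mates in them. unc5d (ENSDARG00000061541), a netrin receptor of growing axons, was at 1.55 CPM in control replicate 6, against 46.1 to 70.4 CPM, and at 0.149 CPM (7 counts) in 5 mGy/h replicate 1, against 27.5 and 41.4 CPM. mmp24, a membrane-bound metalloproteinase, was at 5.65 CPM in control replicate 6, against 168 to 349 CPM, and at 0.785 CPM in 5 mGy/h replicate 1, against 65.5 and 113 CPM.

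Signalling and regulatory genes completed the 12. mapk8ip2, a scaffold of the JNK kinase pathway, was at 9.43 CPM in control replicate 6, against 296 to 344 CPM, and at 1.78 CPM in 5 mGy/h replicate 1, against 105 and 200.4 CPM. acvr1b (ENSDARG00000052142), an activin receptor, was at 0.398 CPM (10 counts) in control replicate 6, against 26.4 to 40.9 CPM, and at 0.149 CPM (7 counts) in 5 mGy/h replicate 1, against 22.5 and 28.9 CPM. slc25a22a, which carries glutamate into mitochondria, was at 3.10 CPM in control replicate 6, against 97.3 to 116 CPM, and at 0.679 CPM in 5 mGy/h replicate 1, against 42.5 and 64.0 CPM. All mates were well above the floor in these genes. The methyl-CpG-binding repressor zbtb4 was at 7.96 CPM in control replicate 6, against 206 to 281 CPM, and at 2.12 CPM in 5 mGy/h replicate 1, against 123 and 151 CPM. The transcription factor klf13 was the most variable of the 12, at 2.63 CPM in control replicate 6, against 69.4, 153, 219, 182 and 52.5 CPM in its mates, and at 0.276 CPM in 5 mGy/h replicate 1, against 17.3 and 40.5 CPM.

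**Figure D2:**
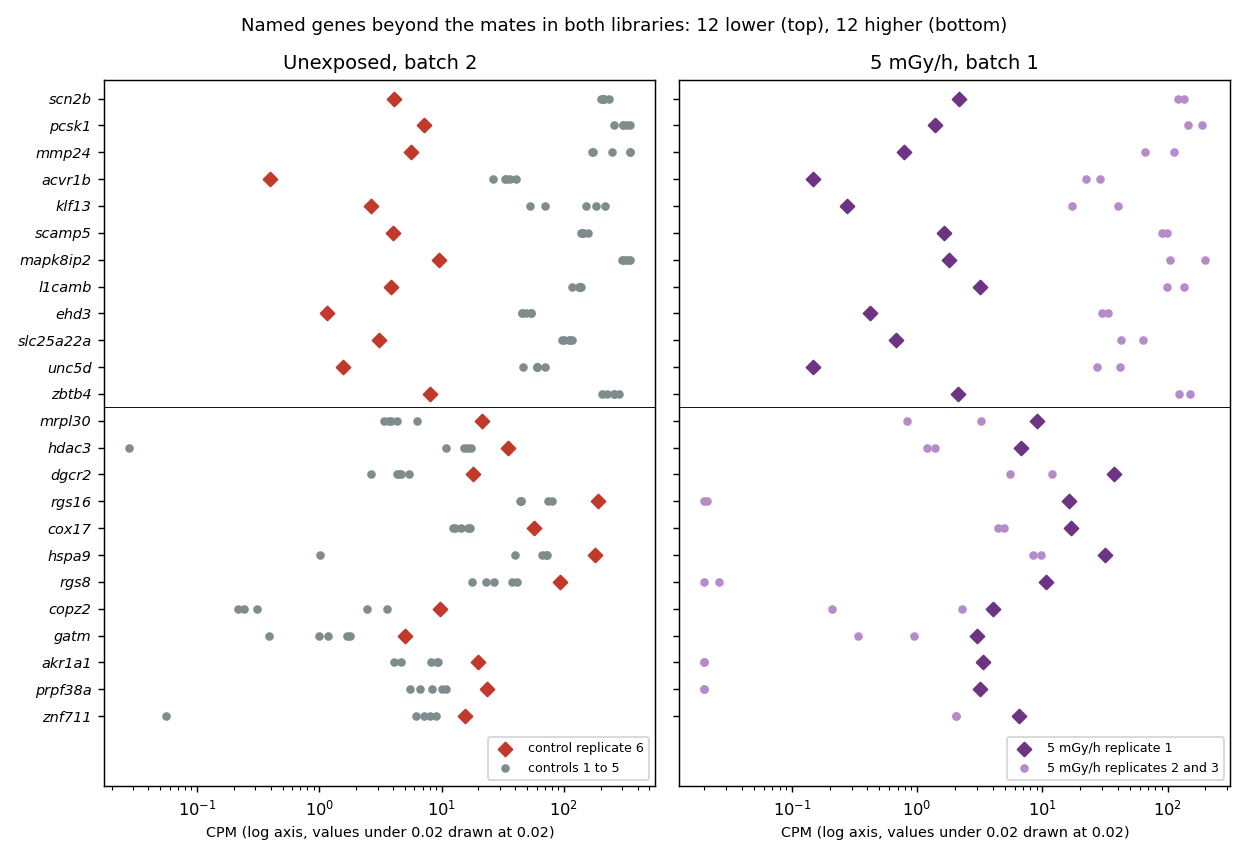
CPM (x axis, logarithmic) of 24 named genes beyond the mates in both libraries, the 12 with the largest drops above the line and the 12 with the largest rises below it. The deviating library (diamond) lies outside all its mates (circles) in each panel, as the choice of genes required. Its distance from their mean is at least 28.9-fold in each of the 12 lower genes.

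The choice of genes did not use 12 of the libraries, 6 in each batch. Control replicate 6 was below all 6 of these in its batch, the libraries at 0.05 mGy/h, in 2701 of the 2708 genes (99.7%), where this held for 41.3% of all genes tested. For 5 mGy/h replicate 1, set against the 3 libraries at 0.5 mGy/h and the 3 controls of batch 1, the count was 2575 (95.1%), beside 33.1% of all genes tested. Both held in 2571 genes (94.9%), beside 29.2% of all genes tested. The genes had been chosen as low in both libraries, so these shares describe them and are no test. The libraries at 0.05 mGy/h, relative to control replicates 1 to 5, had medians between -0.06 and 0.22 over these genes, so irradiated fish of batch 2 did not hold the pattern. Batch 1 differed: relative to 5 mGy/h replicates 2 and 3, the 3 libraries at 0.5 mGy/h had medians of -0.50, -0.58 and -0.78, and the 3 controls had medians of -0.62, -0.66 and -0.71. Replicates 2 and 3 at 5 mGy/h thus lay above every other library of batch 1 for these genes, and replicate 1 lay below every other at -2.02. The choice required replicates 2 and 3 to stand above replicate 1, so it favours genes high in them, and this order is no test. scn2b shows this order, with 38.3 to 61.6 CPM at 0.5 mGy/h and 43.7 to 53.1 CPM in the controls of batch 1, against 191 to 227 CPM at 0.05 mGy/h. klf13 was at 0.936 to 2.07 CPM at 0.5 mGy/h and 1.57 to 2.15 CPM in the controls of batch 1, so that in this gene the whole of batch 1 other than 5 mGy/h replicates 2 and 3 was low.

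**Figure D3:**
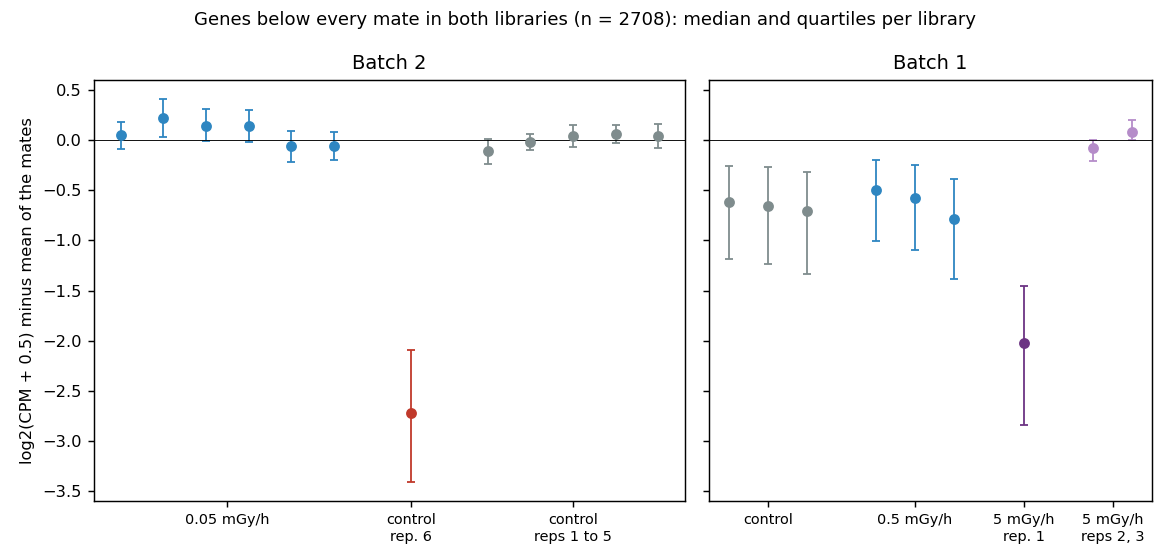
Median (circle) and quartiles (bars) over the 2708 shared lower genes in each of the 21 libraries, as log2(CPM + 0.5) minus the mean of the mates in its batch, which are control replicates 1 to 5 in batch 2 and 5 mGy/h replicates 2 and 3 in batch 1. Control replicate 6 lies at -2.73 and 5 mGy/h replicate 1 at -2.02, below all other libraries of their batches, and the remaining 6 libraries of batch 1 lie between -0.78 and -0.50.

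Ion channels and ankyrins had, of all lists, the largest share of genes below the mates in both libraries. Lists were chosen with earlier results of these data known, so this order is no independent finding. Of 45 tested genes of voltage-gated channels and the ankyrins that anchor them, 31 (68.9%) were below the mates in both libraries, beside 15.5% of all tested genes, with medians of -3.14 in control replicate 6 and -1.79 in 5 mGy/h replicate 1. The sodium channel scn1lab was at 28.9 CPM in control replicate 6, against 350 to 447 CPM in its mates, and at 49.2 CPM in 5 mGy/h replicate 1, against 233 to 312 CPM. The L-type calcium channel subunit cacna1c was at 5.01 CPM in control replicate 6, against 160 to 184 CPM, and at 2.08 CPM in 5 mGy/h replicate 1, against 42.9 to 86.9 CPM. ank2b, the most abundant member, was at 588 CPM in control replicate 6, against 1503 to 1737 CPM, and at 733 CPM in 5 mGy/h replicate 1, against 1100 to 1258 CPM, a difference of -0.68 that does not reach 2-fold in the irradiated library.

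Among 26 tested genes of GABA synthesis, transport and reception, 15 (57.7%) were below the mates in both, with medians of -2.76 in control replicate 6 and -1.43 in 5 mGy/h replicate 1. A receptor gene was among them. gabbr1b, a subunit of the metabotropic receptor, was at 9.63 CPM in control replicate 6, against 255 to 281 CPM, and at 8.34 CPM in 5 mGy/h replicate 1, against 81.7 to 160 CPM. The most abundant transcripts of the enzymes that make GABA did not reach the 2-fold limit. Short of it, gad2 lay below every mate in both libraries and gad1 (ENSDARG00000027419) in control replicate 6 only. gad2 was at 895 CPM in control replicate 6, against 1019 to 1279 CPM, and at 710 CPM in 5 mGy/h replicate 1, against 844 to 1072 CPM, while gad1 (ENSDARG00000027419) was at 687 CPM, against 746 to 895 CPM, and at 836 CPM, against 723 to 802 CPM. The second gene named gad1 (ENSDARG00000093411), far less abundant, was at 0.557 CPM in control replicate 6, against 16.4 to 21.9 CPM, and at 0.191 CPM in 5 mGy/h replicate 1, against 13.98 to 15.9 CPM, below the mates in both.

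Synaptic genes of one family could differ. Of 46 tested scaffold and adhesion genes, 20 (43.5%) were below the mates in both libraries, with medians of -2.17 and -0.61. shank2b, unlike shank2a, deviated in both, at 2.90 CPM in control replicate 6, against 37.3 to 45.8 CPM, and at 11.8 CPM in 5 mGy/h replicate 1, against 37.5 to 41.7 CPM. bsn (ENSDARG00000111110), a gene of the presynaptic scaffold bassoon, was at 4.06 CPM in control replicate 6, against 184 to 214 CPM, and at 1.23 CPM in 5 mGy/h replicate 1, against 22.1 to 37.5 CPM. The second, bsn (ENSDARG00000079161), was at 182 CPM in control replicate 6, against 664 to 834 CPM, and at 280.3 CPM in 5 mGy/h replicate 1, against 487 to 651 CPM. How reads are divided between such related genes can affect each of these values. The neurexin nrxn1a was above the mates in control replicate 6 by 0.66 and in 5 mGy/h replicate 1 by 0.32, short of 2-fold.

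Protocadherins, a list added after values had been seen, had 25 of 42 tested genes (59.5%) below the mates in both libraries, with medians of -2.15 in control replicate 6 and -1.40 in 5 mGy/h replicate 1. pcdh2ab9, of a clustered array, was at 0.477 CPM in control replicate 6, against 23.9 to 36.0 CPM, and at 0.276 CPM in 5 mGy/h replicate 1, against 16.5 to 22.7 CPM. pcdh2g28, the most abundant, was at 541 CPM in control replicate 6, against 798 to 919 CPM, and at 988 CPM in 5 mGy/h replicate 1, against 815 to 906 CPM, and so went below the mates in one and above them in the other, each by less than 2-fold. Members of clustered arrays share sequence, so counts of single members are uncertain.

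Fewer members moved in the other neuronal lists, at shares nearer to the 15.5% of all tested genes that were below in both. Of 29 tested ionotropic glutamate receptor genes, 6 (20.7%) were below the mates in both, and grin1a, the obligate NMDA receptor subunit, was at 1864 CPM in control replicate 6, against 1924 to 2226 CPM, and at 2197 CPM in 5 mGy/h replicate 1, against 2140 to 2174 CPM. One member, gria3b, was above the mates in both libraries. In synaptic vesicle release, also added later, the share was 12 of 53 (22.6%), and the vesicle protein syt1a was at 2111 CPM in control replicate 6, against 2117 to 2262 CPM, and at 2104 CPM in 5 mGy/h replicate 1, within the 2081 to 2124 CPM of its mates. The vesicle GTPase rab3a (ENSDARG00000043835) was by contrast at 3.42 CPM in control replicate 6, against 127 to 165 CPM, and at 3.35 CPM in 5 mGy/h replicate 1, against 86.3 to 107 CPM. The motor gene kif5b (ENSDARG00000103394), of the kinesins (9 of 40, 22.5%, added later), was at 6.13 CPM in control replicate 6, against 162 to 186 CPM, and at 1.65 CPM in 5 mGy/h replicate 1, against 108 to 143 CPM.

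Genes outside the synapse were among the shared lower genes as well. In the list of large chromatin regulators 13 of 54 (24.1%) were below the mates in both, beside 15.5% of all tested genes. Among them was kmt2a, a histone methyltransferase, at 13.3 CPM in control replicate 6, against 281 to 356 CPM, and at 41.7 CPM in 5 mGy/h replicate 1, against 178 to 204 CPM. Of 42 clock genes, 12 (28.6%) were below in both, beside the same 15.5%. Among them was npas2, at 1.11 CPM in control replicate 6, against 20.6 to 52.5 CPM, and at 0.361 CPM in 5 mGy/h replicate 1, against 6.95 to 9.97 CPM. The glial glutamate transporter slc1a3 (ENSDARG00000043148) was at 29.7 CPM in control replicate 6, against 135 to 176 CPM, and at 60.4 CPM in 5 mGy/h replicate 1, against 216 to 271 CPM. The second gene of that name, slc1a3 (ENSDARG00000104431), was above the mates in control replicate 6, at 48.7 CPM against 12.4 to 24.4 CPM, and within them in 5 mGy/h replicate 1, at 21.004 CPM against 16.4 to 21.8 CPM. On the radial glia list, 3 of 29 tested genes (10.3%) were below in both, fewer than the 15.5% of all tested genes. In control replicate 6, 10 of the 29 were above the mates and 4 below, beside 18.2% and 26.3% of all genes tested. The summed level of this list was 13663 CPM in control replicate 6, against 7611 to 9427 CPM. In 5 mGy/h replicate 1 the sum was 10167 CPM, against 8850 to 9106 CPM. The microglial receptor csf1ra was at 1.95 CPM in control replicate 6, against 10.3 to 11.5 CPM, and at 2.16 CPM in 5 mGy/h replicate 1, against 12.8 to 13.8 CPM. apoeb, an apolipoprotein also made by microglia, was above the mates in control replicate 6 (803 CPM, against 184 to 274 CPM) and at 178 CPM in 5 mGy/h replicate 1, against 124 to 159 CPM. Over the whole microglia and macrophage list, 14 of 24 tested genes were above the mates in control replicate 6, beside 18.2% of all genes tested, and 2 were below, csf1ra being one of them. Its summed level was 2401 CPM in control replicate 6, against 708 to 853 CPM, and 1047 CPM in 5 mGy/h replicate 1, against 796 to 904 CPM. The low receptor gene thus went against most of its list in control replicate 6.

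Genes of protein synthesis, protein breakdown and respiration were among those above the mates, mostly by 2-fold or more in control replicate 6 and by less in 5 mGy/h replicate 1. Of 79 cytosolic ribosomal protein genes, 75 were above the mates in control replicate 6, beside 18.2% of all tested genes, and 1 in 5 mGy/h replicate 1, beside 0.694%. The list's median difference was 2.03 in control replicate 6 and 0.52 in 5 mGy/h replicate 1, and the summed level was 64858 CPM in control replicate 6, against 14378 to 15954 CPM, and 20118 CPM in 5 mGy/h replicate 1, against 12279 to 16031 CPM. rpl3 was at 2921 CPM in control replicate 6, against 598 to 771 CPM, and at 921 CPM in 5 mGy/h replicate 1, against 592 to 749 CPM. Nuclear-encoded respiratory chain genes (added later) were above the mates in 88 of 94 cases in control replicate 6 and in 0 of 94 in 5 mGy/h replicate 1, with medians of 1.76 and 0.51. Proteasome subunits (added later) gave 36 of 44 and 0 of 44, with medians of 1.58 and 0.45, and mitochondrial ribosomal proteins (added later) gave 68 of 74 and 2 of 74, with medians of 1.46 and 0.48. The medians had the same sign in both libraries, and the larger size was that of control replicate 6 in each of these 4 lists. They were not the only lists above the mates in control replicate 6, where 17 of 30 neuropeptide and granin genes, 17 of 36 antioxidant genes and 14 of 33 proliferation genes were above as well. Relative to the shift of -0.31 that the other scaling gave control replicate 6, these medians are larger in size.

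**Figure D4:**
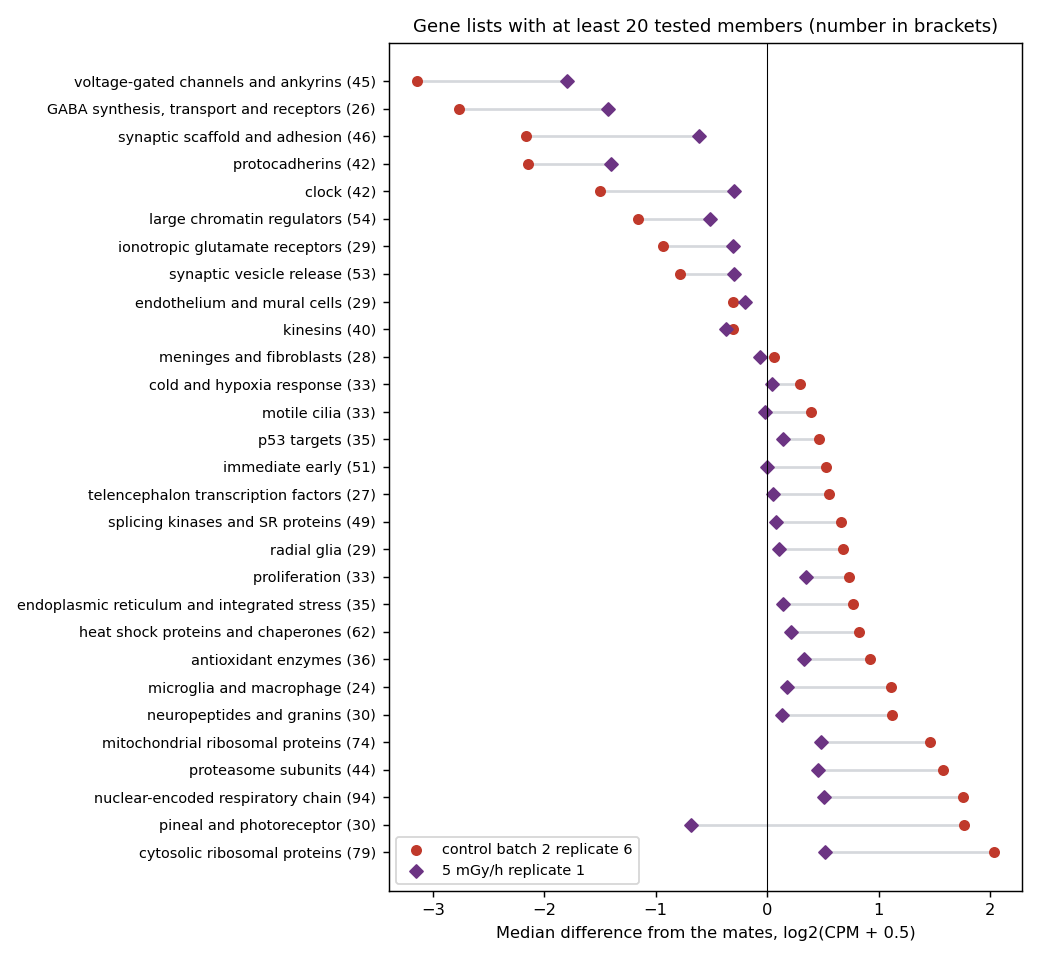
Median difference from the mates, in log2(CPM + 0.5), of each gene list with at least 20 tested members, in control batch 2 replicate 6 (circles) and 5 mGy/h replicate 1 (diamonds). Voltage-gated channels lie lowest in both (-3.14 and -1.79), cytosolic ribosomal proteins lie highest in control replicate 6 (2.03), and pineal and photoreceptor genes lie on opposite sides (1.77 and -0.68).

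Over all 37 lists, 10 had a median below 0 in both libraries and 24 a median above 0 in both. The remaining 3 lists had medians of opposite sign. Of 15 tested preoptic and hypothalamic genes, 10 were above the mates in control replicate 6, beside 18.2% of all genes tested. In 5 mGy/h replicate 1 the count was 0 of 15, near the 0.694% of all genes tested. Their summed level was 5122 CPM in control replicate 6, against 2713 to 2940 CPM, and 2854 CPM in 5 mGy/h replicate 1, against 2450 to 2570 CPM, and 2 of the 23 genes were at 0 in each library. Preoptic markers include oxt, at 1273 CPM in control replicate 6 against 41.4 to 132 CPM in its mates. That gene was first given as a marker of the deviation, so this count and sum are in part no independent sign. Of 62 heat shock protein and chaperone genes, 26 were above the mates in control replicate 6, beside 18.2% of all genes tested. In 5 mGy/h replicate 1 it was 1 of the 62, beside 0.694%. The list medians were 0.83 and 0.21. Below the mates in both were 5 of the 62 (8.06%), under the 15.5% of all genes tested. The heat shock factor hsf1, 1 of these 5, was at 10.3 CPM in control replicate 6, against 55.0 to 63.2 CPM. In 5 mGy/h replicate 1 it was at 21.8 CPM, against 56.8 to 62.3 CPM. Of 30 pineal and photoreceptor genes, 19 were above the mates in control replicate 6, beside 18.2% of all genes tested. In 5 mGy/h replicate 1, 6 of the 30 were below the mates by the 2-fold rule, near the 16.6% of all genes tested. There 26 of the 30 had a difference below 0, with a list median of -0.68, relative to the 2 mates alone. Their summed level was 2099 CPM in control replicate 6, against 157 to 749 CPM, and 1283 CPM in 5 mGy/h replicate 1, against 1758 to 2236 CPM. All other libraries of batch 1 together spanned 118 to 2437 CPM, so 5 mGy/h replicate 1 lay within them. The part of preoptic or pineal tissue in the differences of control replicate 6 was not tested.

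The 45 shared higher genes were a smaller and less even set, and 37 of them carry a gene name. Their median difference was 1.70 in control replicate 6 and 1.42 in 5 mGy/h replicate 1. Against the 6 libraries of each batch that the choice did not use, 21 of them (46.7%) were above all 6 in both batches, beside 26.2% of all genes tested. The count was 43 for control replicate 6 and 21 for 5 mGy/h replicate 1. mrpl30, a mitochondrial ribosomal protein, was at 21.3 CPM in control replicate 6, against 3.71, 4.35, 6.33, 3.35 and 3.83 CPM in its mates, and at 9.02 CPM in 5 mGy/h replicate 1, against 0.832 and 3.23 CPM. cox17, a copper chaperone for cytochrome oxidase, was at 57.4 CPM in control replicate 6, against 12.4 to 17.1 CPM, and at 17.0 CPM in 5 mGy/h replicate 1, against 4.95 and 4.39 CPM. For cox17 the mates were close to each other, and for mrpl30 the mates at 5 mGy/h were not. Just inside the limit was rpl13a, with differences of 1.88 in control replicate 6 and 1.01 in 5 mGy/h replicate 1, and just outside it mhc2dhb, with 1.34 and 0.987.

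Several shared higher genes varied strongly among the mates. hdac3, a histone deacetylase, was at 35.2 CPM in control replicate 6, against 10.8, 17.3, 16.2, 15.2 and 0.0280 CPM in its mates, and at 6.70 CPM in 5 mGy/h replicate 1, against 1.40 and 1.196 CPM. hspa9, the mitochondrial chaperone mortalin, was at 180.2 CPM in control replicate 6, against 40.1, 73.1, 66.0, 71.0 and 1.01 CPM, and at 31.4 CPM in 5 mGy/h replicate 1, against 9.79 and 8.44 CPM. znf711, a zinc finger protein, was at 15.4 CPM in control replicate 6, against 0.0559 to 8.98 CPM, and at 6.51 CPM in 5 mGy/h replicate 1, against 2.06 and 2.06 CPM. Control replicate 5 was the low library in all 3. With all other libraries of batch 1 as mates, the differences of 5 mGy/h replicate 1 were 0.41 for hdac3, 0.17 for hspa9 and 0.25 for znf711, short of 2-fold, against 2.00, 1.73 and 1.45 with replicates 2 and 3 alone. All 3 genes were higher in each library at 0.5 mGy/h than in 5 mGy/h replicate 1, at 9.84 to 30.8 CPM for hdac3, 53.4 to 144 CPM for hspa9 and 8.78 to 21.8 CPM for znf711. rgs16 and rgs8, which speed the hydrolysis of GTP by G proteins, were at 191.6 and 92.0 CPM in control replicate 6, against 44.0 to 80.6 CPM and 17.7 to 41.6 CPM in its mates. In 5 mGy/h replicate 1 rgs16 was at 16.5 CPM and rgs8 at 10.8 CPM, and in both mates each was under the floor of 3 counts, so no fold change is given. The aldehyde reductase akr1a1 and the splicing factor prpf38a were likewise at 3.35 and 3.18 CPM in 5 mGy/h replicate 1 and under the floor in both mates. Other libraries of batch 1 varied as widely, with rgs16 at 0.0187 to 35.3 CPM at 0.5 mGy/h and at 0.0786 to 13.5 CPM in the controls.

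The last 3 of the 12 were dgcr2, copz2 and gatm. dgcr2, an adhesion receptor protein, was at 17.9 CPM in control replicate 6, against 2.66 to 5.40 CPM, and at 37.1 CPM in 5 mGy/h replicate 1, against 5.47 and 11.8 CPM. gatm, an enzyme of creatine synthesis, was at 5.01 CPM in control replicate 6, against 0.391 to 1.79 CPM, and at 3.01 CPM in 5 mGy/h replicate 1, against 0.951 and 0.336 CPM, and its difference in 5 mGy/h replicate 1 was 0.72 against all other libraries of batch 1. copz2, a coat protein of transport vesicles, was at 9.63 CPM in control replicate 6, against 0.217 to 3.61 CPM, and at 4.05 CPM in 5 mGy/h replicate 1, against 2.30 and 0.210 CPM, but against all other libraries of batch 1 its difference in 5 mGy/h replicate 1 was -0.0488, and the controls of batch 1 held 4.33 to 11.7 CPM.

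Of the 21 genes that deviated in opposite directions, the 3 named genes each way with the largest smaller difference are given. asmt, the last enzyme of melatonin synthesis, was at 58.5 CPM in control replicate 6, against 9.70, 20.8, 18.5, 0.659 and 24.2 CPM in its mates, and at 51.9 CPM in 5 mGy/h replicate 1, against 114 and 174 CPM, a difference of -1.43. Against all other libraries of batch 1 that difference was 1.34, in the other direction. idh3b, a subunit of isocitrate dehydrogenase, was at 9.19 CPM in control replicate 6, against 0.0280 to 7.55 CPM, and at 0 counts in 5 mGy/h replicate 1, against 5.35 and 3.92 CPM. The histone gene h3-3b was at 8.56 CPM in control replicate 6, against 0.210 to 8.21 CPM, and at 0.424 CPM in 5 mGy/h replicate 1, against 0.476 and 18.6 CPM. camkv (ENSDARG00000005141), a kinase-like protein of synapses, was at 0.915 CPM in control replicate 6, against 59.1, 1.84, 79.7, 1.77 and 50.6 CPM, and at 163 CPM in 5 mGy/h replicate 1, against 68.2 and 50.4 CPM. plxdc2a was at 2.27 CPM in control replicate 6, against 3.84 to 14.8 CPM, and at 1.103 CPM in 5 mGy/h replicate 1, against 0.106 and 0.0420 CPM, with a difference of 1.48 that was 0.42 against all other libraries of batch 1. bean1 was at 6.37 CPM in control replicate 6, against 11.1 to 22.7 CPM, and at 6.90 CPM in 5 mGy/h replicate 1, against 0.687 and 1.30 CPM.

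The accounting of reads set control replicate 6 apart and 5 mGy/h replicate 1 less so. Unmapped reads were 8.66% in control replicate 6, against 5.02% to 5.73% in its mates, and 4.04% in 5 mGy/h replicate 1, against 4.45% and 4.199%. Mapped reads assigned to no gene on the counted strand were 17.3% in control replicate 6, against 23.5% to 25.1%. In 5 mGy/h replicate 1 they were 24.1%, against 26.2% and 25.2%, so the share was lower than in the mates in both. This class is not limited to reads between genes. Reads on the strand opposite to the genes were 3.15% in control replicate 6, against 2.50% to 2.67%, and 2.78% in 5 mGy/h replicate 1, between its mates. The 10 most abundant genes took 12.21% of the reads on genes in control replicate 6, against 8.44% to 9.65%, and 10.1% in 5 mGy/h replicate 1, against 8.90% and 7.88%. Mitochondrially encoded genes took 9.82% in control replicate 6, against 7.67% to 8.86%, and 9.20% in 5 mGy/h replicate 1, against 7.69% and 6.88%. The part of library or RNA quality in the gene differences was not tested.

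**Figure D5:**
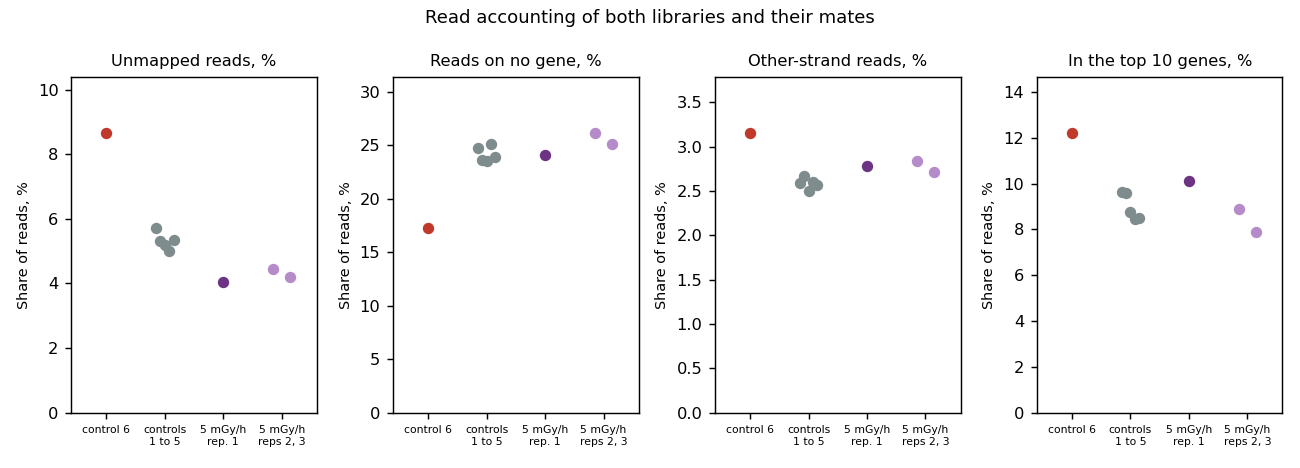
Shares of reads (y axes, percent) in control batch 2 replicate 6, its 5 mates, 5 mGy/h replicate 1 and its 2 mates. The panels give reads that were unmapped, mapped but assigned to no gene on the counted strand, on the opposite strand, or on the 10 most abundant genes. Control replicate 6 lies outside its mates in all 4 panels, and 5 mGy/h replicate 1 in 3 of them.

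The dose comparison that uses none of the 9 libraries, 0.5 mGy/h against the controls of batch 1, gave the one independent reading of the shared genes. By edgeR's quasi-likelihood test, at an fdr below 0.05 combined with a 1.5-fold change, 0 of 20885 genes passed (0%), and 1143 had an unadjusted p under 0.05 (5.47%). Of the 2708 shared lower genes 2668 could be tested, 92 of them had an unadjusted p under 0.05 (3.45%), and their median log2 fold change was 0.06. Of the 45 shared higher genes 41 could be tested, and 9 of these 41 had an unadjusted p under 0.05, beside 5.47% of all genes. With DESeq2, 41 of 20046 genes passed (0.205%). Among the shared lower genes 8 of 2634 tested passed (0.304%), 4 higher and 4 lower at 0.5 mGy/h. Among the shared higher genes 6 of 41 tested passed, all higher at 0.5 mGy/h, a larger share than that of all genes. Libraries are pools of different fish, and p-values measure the spread between pools.

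The comparison of 5 mGy/h with the controls of batch 1 changed with its deviating library. With all 6 libraries 0 of 20910 genes passed in edgeR (0%), 777 had an unadjusted p under 0.05 (3.72%), and DESeq2 returned 67. Without 5 mGy/h replicate 1, 1187 of 21508 genes passed in edgeR, 5.52% of the genes tested, of which 1161 were higher and 26 lower at 5 mGy/h, and 4849 had an unadjusted p under 0.05 (22.5%). Of these 1187, 1075 belonged to the shared lower genes, and 1074 of the 1075 were higher at 5 mGy/h. Those genes were chosen for standing higher in 5 mGy/h replicates 2 and 3 than in replicate 1, so this count is no independent measure of them. Their median log2 fold change was 0.27 with all libraries and 0.73 without replicate 1. Whether replicate 1 or replicates 2 and 3 better represent fish at 5 mGy/h cannot be told apart with 3 libraries.

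At 0.05 mGy/h against the controls of batch 2, 1 of 19454 genes passed with all 12 libraries (0.00514%), with 829 at an unadjusted p under 0.05 (4.26%) and 13 genes in DESeq2. When the replicate number entered as a block, no gene passed (0). The other fits of this comparison did not pair the libraries, and no blocked fit was run without control replicate 6. The gene that passed with all 12 libraries was hmgb3 (ENSDARG00000056725), a chromatin protein, at 532 to 640 CPM (median 582) at 0.05 mGy/h, against 950 to 1491 CPM (median 1088) in controls, a log2 fold change of -0.98 (edgeR fdr 0.0186), and control replicate 6 held the highest value. Without control replicate 6, 8 of 19527 genes passed (0.041%), 7 higher and 1 lower at 0.05 mGy/h, and 1 of them, gucy2g, was a shared lower gene. Of the 2708 shared lower genes, 10 (0.369%) had an unadjusted p under 0.05 with control replicate 6, beside 4.26% of all genes. Without control replicate 6 the count was 198 (7.31%), near the 7.94% of all genes. The median log2 fold change of the shared lower genes was 0.30 with it and 0.07 without it. Those genes were chosen for control replicate 6 standing far below the other controls. With that library, the choice itself lowers the control mean and widens the control spread. These shares and medians are therefore no independent measure of them.

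Among the 8 were hspa8 (ENSDARG00000037403) and hsp90aa1, both described above. The second gene named hspa8 (ENSDARG00000068992) was not among them. Its log2 fold change was -0.40 (edgeR fdr 0.86) without control replicate 6 and -0.73 (edgeR fdr 0.75) with it. hspa8 (ENSDARG00000037403) was at 299 to 363 CPM (median 332) at 0.05 mGy/h, against 115 to 149 CPM in control replicates 1 to 5 and 283 CPM in control replicate 6. Without control replicate 6 its log2 fold change was 1.29 (edgeR fdr 5.27e-06), and with it 1.05 (edgeR fdr 0.61). hsp90aa1 was at 583 to 803 CPM (median 658) at 0.05 mGy/h, against 305 to 445 CPM in control replicates 1 to 5 and 1165 CPM in control replicate 6, with a log2 fold change of 0.78 (edgeR fdr 0.0191) without control replicate 6 and 0.36 (edgeR fdr 0.751) with it. For hspa8 (ENSDARG00000037403) all 6 irradiated libraries lay above all 6 controls. For hsp90aa1 they lay above control replicates 1 to 5 and below control replicate 6. oxt was lower at 0.05 mGy/h by 1.64 on the log2 scale with control replicate 6 (edgeR fdr 0.75) and by 0.04 without it (edgeR fdr 0.981), so neither fit called it. Both hsp90aa1 and oxt were first given as markers of the deviation of control replicate 6. Their fits without that library depend on this choice and are no independent measure of these genes.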

How the data were processed

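RNA of telencephalon pools was sequenced by the study from a stranded mRNA library, 21 libraries in all. The authors deposited raw counts of reads per gene for each library, as STAR writes them, for 32057 Ensembl genes, aligned to GRCz11 per the paper. The submitters' processing notes name STAR and DESeq2 1.22.2. The counts of the sense strand were used. Between 34.5 and 128 M reads per library were accounted for, which sets the precision. Names were paired with 28989 gene IDs from Ensembl and RefSeq name tables and the names in a supplementary table of the paper, and clone names (si:, zgc: and the like) were not treated as gene names.

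Counts were scaled by TMM over all libraries (edgeR 4.0.16, R 4.3.3) and expressed as log2(CPM + 0.5). Genes with a mean of at least 1 CPM were kept. Each deviating library was described against its mates without a test. Dose groups were compared with edgeR's quasi-likelihood test (filterByExpr, Benjamini-Hochberg fdr), DESeq2 1.42.0 being an alternative. Both steps were tested on simulated data. In batch 2, deviations of same-numbered libraries correlated at 0.181 to 0.327 in all 6 pairs across genes, and 5 of 6 correlated best with their own number. A pairing by replicate number was read from the data alone and entered as a block in an alternative only. The main fits, and those that leave out a library, did not pair the libraries. The genes named are the markers with hspa8 and avp, the 12 named genes with the largest smaller difference each way, the 3 each way with opposite directions, and of each list its most abundant members and its shared members, of which a few are given. Genes of dose comparisons and pairs of related genes were named after their values were seen. Members and lists were chosen with earlier results of these data known, and 6 lists were added after values had been seen. Of 1063 list entries 74 could not be matched. Alternatives are given in the closing section. Results for a few list members are not reported here.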

Additional observations from a re-analysis of the deposited data

Results flagged for a closer look

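Of 88 values tested in groups of 4 to 10 libraries, 32 had 1 library far from the others by the ratio of its gap to the whole range, and chance alone gives this in about 1 of 20 such groups. Each group of batch 1 holds 3 libraries, so 5 mGy/h replicate 1 could not be flagged. Control replicate 6 of batch 2 was the far library in 26 of the 32 values. It had been chosen for its deviation, so these 26 describe it and are no independent sign. They are shank2a at 8.52 CPM, hsp90aa1 at 1165 CPM, oxt at 1273 CPM, hspa8 (ENSDARG00000037403) at 283 CPM, avp at 18.1 CPM, mrpl30 at 21.3 CPM, dgcr2 at 17.9 CPM and cox17 at 57.4 CPM. Among the shared lower genes they are scn2b at 4.06 CPM, pcsk1 at 7.16 CPM, mmp24 at 5.65 CPM, acvr1b (ENSDARG00000052142) at 0.398 CPM, klf13 at 2.63 CPM, scamp5 (ENSDARG00000018743) at 3.98 CPM, mapk8ip2 at 9.43 CPM, l1camb at 3.86 CPM, ehd3 at 1.15 CPM, slc25a22a at 3.10 CPM, unc5d (ENSDARG00000061541) at 1.55 CPM and zbtb4 at 7.96 CPM. In its reads they are the unmapped share of 8.66%, the share assigned to no gene of 17.3%, the ambiguous share of 0.751%, the opposite-strand share of 3.15%, the share of the 10 most abundant genes of 12.21% and the TMM factor of 0.783.

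The other 6 concern 3 libraries. Control replicate 5 of batch 2 was low in hdac3 at 0.0280 CPM, hspa9 at 1.01 CPM, znf711 at 0.0559 CPM and idh3b at 0.0280 CPM. Control replicate 2 had a multimapping share of 14.5%. At 0.05 mGy/h, replicate 2 was high in h3-3b at 5.16 CPM.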

How the results depend on the processing

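The count of genes below the mates in both libraries stayed within 1.5 times of 2708 under every alternative run, and the 10 lists with medians below 0 in both stayed 10 except with scaling by reads on genes alone (12) and with unstranded counts (11). Counts of higher genes moved. With a 1.5-fold limit, 5444 genes were above the mates in control replicate 6, 1039 in 5 mGy/h replicate 1 and 770 in both. With a pseudocount of 2 CPM the last 2 counts were 65 and 22. A mean of at least 5 CPM gave 62 in 5 mGy/h replicate 1. Scaling by reads on genes alone gave 1828 in control replicate 6. All other libraries of the batch as mates gave 50 in 5 mGy/h replicate 1 and 18 in both, and reversed the differences of copz2 (-0.0488) and asmt (1.34) in that library.

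Leaving out each mate in turn gave 3143 to 3232 higher and 4591 to 4610 lower genes in control replicate 6, and 121 to 175 higher and 2895 to 2957 lower genes in 5 mGy/h replicate 1. In both libraries it gave 45 to 77 higher genes (77 without 5 mGy/h replicate 3) and 2663 to 2738 lower genes. Of 1070 values of named genes under alternatives, 977 moved by less than the spread between replicates or not at all, 91 moved by more and 2 reversed. The 977 include alternatives that cannot change a difference. These are the 1.5-fold limit, the other filters, and leaving out a mate of the other library. Their share is therefore no measure of how firm the values are.

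DESeq2 returned 41 genes for the 0.5 mGy/h libraries, 13 for the 0.05 mGy/h libraries and 67 for the 5 mGy/h libraries. Leaving out each library in turn gave 0 to 2 genes at 0.5 mGy/h (1 without 0.5 mGy/h replicate 1 and 2 without replicate 2), 0 to 8 at 0.05 mGy/h (8 without control replicate 6, and 0 without control replicate 1, 2 or 4 or 0.05 mGy/h replicate 1, 2, 3, 5 or 6) and 0 to 1187 at 5 mGy/h (1187 without 5 mGy/h replicate 1 and 6 without control replicate 1). A replicate block left 0 calls in all 3 comparisons. In batch 1 the numbers did not pair the libraries, with correlations of deviations between -0.22 and -0.01 for 5 mGy/h and between -0.56 and -0.14 for 0.5 mGy/h, and 0 of 3 libraries correlated best with their own number. The description by gene length and GC content was not run. The causes of these changes were not tested. With 2 mates, the range for 5 mGy/h replicate 1 is narrow.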
